A study of Mus musculus with 4 samples.

Results

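The cells described here were thick ascending limb cells of the mouse renal cortex in which transcripts of Cldn10 outnumbered those of Cldn16. They were chosen by measured values. In 4 single-cell libraries, a barcode with at least 1000 detected genes and at most 50% mitochondrial counts was kept where Slc12a1 and Umod together reached 40 per 10000 unique transcript counts (UMIs), Slc12a3 stayed under 3 per 10000, Cldn10 had at least 2 UMIs, and Cldn10 had more UMIs than Cldn16. This rule took 3801 of 32407 barcodes past the filters, or 11.7%. They are called Cldn10-dominant cells, and the 783 cells of the same gate with at least 2 Cldn16 UMIs and more Cldn16 than Cldn10 are called Cldn16-dominant cells.

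The libraries came from male mice, with 1 library for each of 4 conditions: young Tfebfl/fl and young Tfebfl/fl KAP mice aged 6 weeks, and aged Tfebfl/fl and aged Tfebfl/fl KAP mice aged 24 months. All mice carried floxed Tfeb alleles, and the KAP mice also carried Cre recombinase under the promoter of the kidney androgen-regulated protein, active in the S3 part of proximal tubules, so the thick ascending limb was not the segment targeted. Cortex from 2 to 3 mice was pooled in each library, so no spread between mice was measured and no p-value is given between conditions. The libraries held 194747936, 155327520, 125729484 and 135792884 UMIs in the order young Tfebfl/fl, young Tfebfl/fl KAP, aged Tfebfl/fl and aged Tfebfl/fl KAP, which is kept for every series of 4 values below.

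The thick ascending limb reabsorbs sodium chloride through the cotransporter encoded by Slc12a1 and secretes uromodulin, the product of Umod. Its tight junctions are built from different claudins in different cells. Claudin-10 forms a pore for sodium, whereas claudin-16, together with claudin-19, is needed for the paracellular uptake of magnesium and calcium, and human mutations of either group cause inherited salt or magnesium disorders.

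The rule gave 1873, 1148, 349 and 431 Cldn10-dominant cells. They made up 17.0% of the barcodes past the filters in young Tfebfl/fl (95% exact binomial interval 16.3 to 17.7), 13.6% in young Tfebfl/fl KAP (12.8 to 14.3), 5.83% in aged Tfebfl/fl (5.25 to 6.45) and 6.22% in aged Tfebfl/fl KAP (5.66 to 6.81). Both aged libraries lay below both young libraries. Among cells of both claudin groups, Cldn10-dominant cells were 90.0% (88.6 to 91.2), 84.0% (82.0 to 85.9), 69.9% (65.7 to 73.9) and 67.7% (63.9 to 71.3). The same order of aged below young was therefore seen with either denominator. Intervals here and below cover counting error only, and a share of cells in dissociated tissue cannot be told apart from unequal recovery of the cell type. The cells had median depths of 11443, 13015, 15981 and 15780 UMIs, so the aged cells were deeper. After each barcode was thinned to 5000 UMIs before gating, the shares of both groups were 94.2%, 91.1%, 81.3% and 77.9%.

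**Figure D1:**
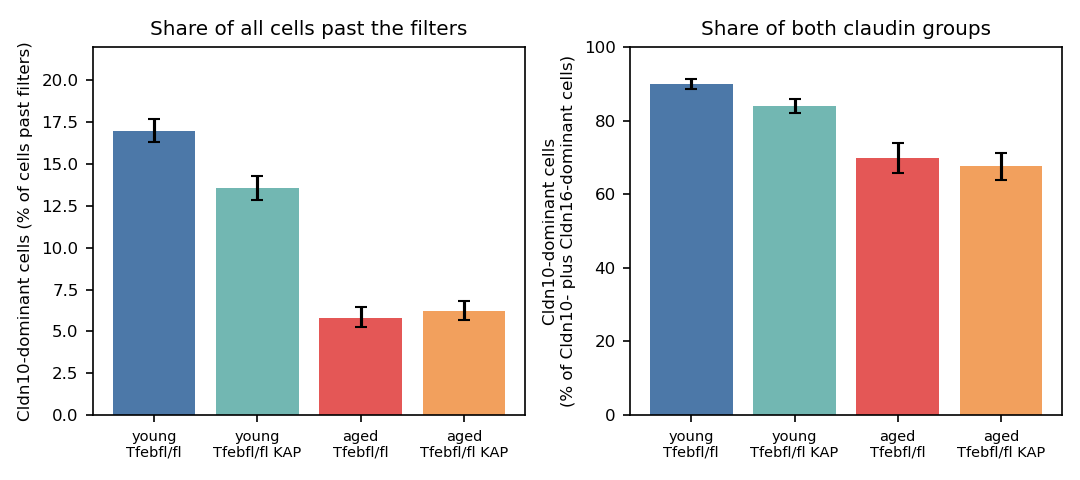
Cldn10-dominant cells in each of the 4 libraries, as a percentage of all barcodes past the filters (left axis, left panel) and of Cldn10-dominant plus Cldn16-dominant cells (right panel). Bars are single libraries and error bars are 95% exact binomial intervals; both aged libraries sit below both young libraries in each panel, at 5.83% and 6.22% against 17.0% and 13.6% on the left.

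The values used by the rule are given as a description. Summed over Cldn10-dominant cells, Cldn10 reached 1991, 1817, 1476 and 1499 CPM (counts scaled to a sum of 1000000 over the cells of a group in each library), and Cldn16 76.0, 63.0, 84.7 and 100.2 CPM. Slc12a1 stood at 7749, 6591, 8008 and 8062 CPM, and Umod at 18331, 18736, 21380 and 22218 CPM. The median cell had 21, 22, 22 and 22 Cldn10 UMIs, far from the limit of 2. No Cldn16 UMI was found in 53.8%, 57.9%, 42.7% and 36.7% of the cells. At the edge of the rule, 93 cells had exactly 2 Cldn10 UMIs, 68 cells just outside had 1, and 52 had equal numbers of Cldn10 and Cldn16 UMIs. The gate also left out 216 cells on Slc12a3 and 71 cells with Slc12a1 and Umod between 20 and 40 per 10000.

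The label was checked against Ptger3, which the rule did not use. Ptger3 encodes the EP3 receptor for prostaglandin E2. After thinning to 2000 UMIs, a Ptger3 UMI was present in 57.6%, 53.6%, 49.9% and 50.6% of Cldn10-dominant cells, against 6.22%, 7.37%, 4.67% and 8.25% of Cldn16-dominant cells. In proximal tubule reference cells, defined by Slc34a1 and Slc5a12, the share was 0.438%, 0.0297%, 0.108% and 0.161%, and these cells had median depths of 17597, 16226, 21641 and 18228 UMIs. Without thinning, 92.8%, 90.1%, 88.5% and 92.1% of Cldn10-dominant cells had a Ptger3 UMI. The Cldn10-dominant libraries did not overlap either reference group. By CPM, 6.00% of 11016 genes lay wholly above Cldn16-dominant cells in this way. The share of genes wholly above proximal tubule reference cells was not counted.

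Markers of other cell types were summed in the same cells. The 16 proximal tubule markers reached 3281, 2075, 5331 and 1733 CPM in Cldn10-dominant cells, with Kap, an androgen-regulated proximal tubule gene, the most abundant at a mean of 1505 CPM. In Cldn16-dominant cells the same sum was 671, 401, 1136 and 425 CPM. Cldn10 itself was present in proximal tubule reference cells at a mean of 317 CPM. Whether barcodes that hold RNA of both cell types gained Cldn10 counts was not tested. Cldn10-dominant cells with 1% or more of their counts from these markers numbered 124, 47, 24 and 8, or 5.34% of all. Erythrocyte markers were at 81.7, 399, 0 and 0.431 CPM, with Hbb-bs the most abundant. Barcodes shared between pairs of libraries numbered 10 to 27 among the barcodes past the filters.

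Cldn10 lies on chromosome 14 at 118787908-118875489 on the plus strand in the GENCODE annotation of GRCm38. Its protein-coding transcripts start at 118787908, 118787918 or 118854732 and end between 118874524 and 118875489, so counts of 3′ ends do not separate the isoforms. Ptger3 lies on chromosome 3 at 157566892-157645888 on the plus strand. The bases before the starts of these genes are shown because Cldn10 defines the cells and Ptger3 is the marker of these cells that the rule did not use. For Cldn10 the bases shown lie before the starts at 118787908 and 118787918. A second window, of 32 bases before the start at 118854732, is not shown. Sequences are from RefSeq (GRCm38.p6, plus strand, chr14:118787621-118787870 and chr3:157566626-157566875), and capitals mark ACATGT, a palindromic motif bound by Iroquois homeodomain proteins.
Cldn10 upstream: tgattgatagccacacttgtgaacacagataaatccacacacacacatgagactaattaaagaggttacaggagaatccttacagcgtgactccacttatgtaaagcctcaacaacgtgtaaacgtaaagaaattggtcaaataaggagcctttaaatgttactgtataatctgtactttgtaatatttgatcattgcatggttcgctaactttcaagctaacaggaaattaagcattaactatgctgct
Ptger3 upstream: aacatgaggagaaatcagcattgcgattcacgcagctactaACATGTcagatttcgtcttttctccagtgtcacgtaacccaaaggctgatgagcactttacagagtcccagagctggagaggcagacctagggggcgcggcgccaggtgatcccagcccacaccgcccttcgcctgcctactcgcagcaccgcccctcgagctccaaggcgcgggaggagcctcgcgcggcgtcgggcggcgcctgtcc
The motif, which reads the same on both strands, was present in 5.28% of 32851 promoter windows of 300 bases. Of the genes with the largest differences described next, 10 of 15 higher genes and 11 of 15 lower genes had a window, and Ptger3 was the only match, with 1 of 10 higher and 0 of 11 lower genes. A match of these letters is a description of the sequence and shows no binding.

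The comparison with Cldn16-dominant cells asked which genes other than the rule's own differ between the claudin groups of the same libraries. Of 11016 genes tested, 798 were higher in Cldn10-dominant cells (7.24%) and 547 were lower (4.97%) at an adjusted p under 0.05 (edgeR quasi-likelihood test on sums per library, with library as a block, 4 libraries in each group). Among transcription factors, the Iroquois family was split: Irx1 and Irx2 were higher and Irx3 and Irx5 were lower. Ptger3, the phospholipase gene Pla2g7 and the protease gene Pappa2 were also higher, whereas Foxq1, Cldn14 and Pth1r were lower. Leaving out the young Tfebfl/fl library lowered the number of lower genes to 364, and leaving out the young Tfebfl/fl KAP library lowered it to 330.

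Iroquois genes encode homeodomain transcription factors that pattern the nephron. Irx1 was at 152, 142, 210 and 224 CPM in Cldn10-dominant cells and at 22.3, 15.6, 13.8 and 19.8 CPM in Cldn16-dominant cells, a log2 fold change of 3.30 ± 0.13 (SE, n = 4 libraries; adjusted p = 1.65e-09). Irx2 was at 130, 117, 171 and 172 CPM against 21.5, 28.4, 40.9 and 28.7 CPM, a log2 fold change of 2.28 ± 0.10. The groups did not overlap for either gene. Over all genes tested, the libraries of Cldn10-dominant cells lay wholly above those of Cldn16-dominant cells for 6.00% and wholly below for 3.93%. Irx3 went the other way, at 26.5, 20.9, 29.8 and 29.0 CPM against 102.9, 77.4, 92.7 and 127 CPM (log2 fold change -1.94 ± 0.09). Irx5 was at 1.25, 1.23, 1.40 and 1.15 CPM against 22.3, 20.2, 22.1 and 24.9 CPM (log2 fold change -4.16 ± 0.19, adjusted p = 1.10e-08), the lowest fold change named. Foxq1, a forkhead factor, was at 49.5, 34.9, 83.3 and 83.2 CPM against 341, 323, 391 and 368 CPM. Of 28 thick ascending limb transcription factors tested, 7 were higher and 7 lower, beside 7.24% and 4.97% of all genes tested. Their median log2 fold change was 0.07 beside -0.01 for all genes. Higher members also included Ehf (0.88), Sim2 (0.80) and the estrogen-related receptors Esrrb (0.51) and Esrrg (0.47), while Tfap2b, Hoxd8 and Tfcp2l1 fell by 0.30, 0.45 and 0.38 on the log2 scale.

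**Figure D2:**
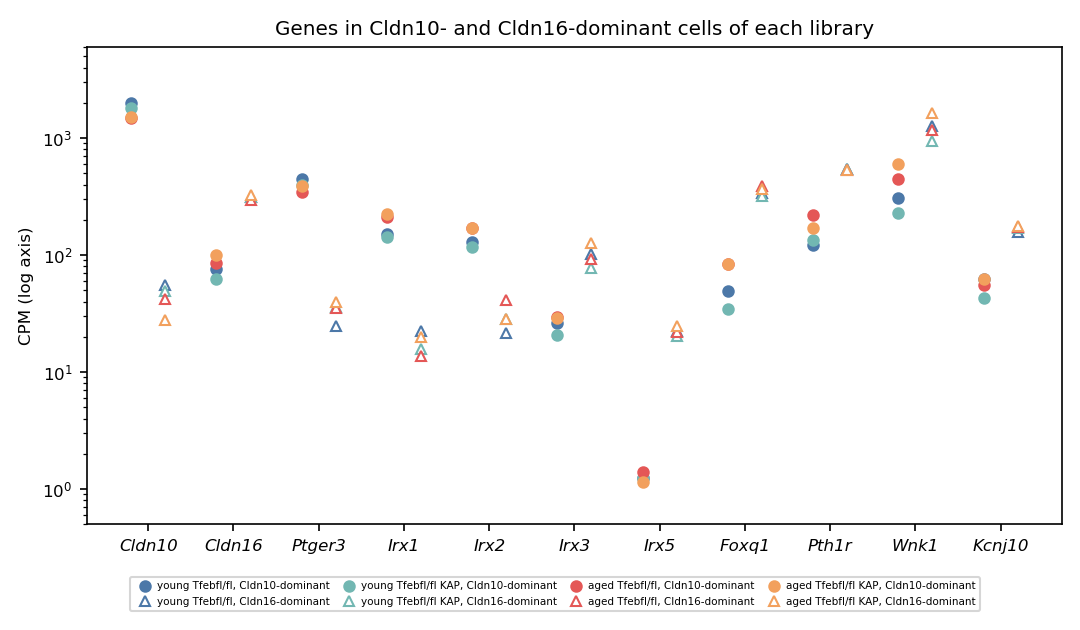
CPM on a log axis for 11 genes in Cldn10-dominant cells (filled circles) and Cldn16-dominant cells (open triangles) of each library, coloured by condition; Cldn10 and Cldn16 were used by the rule. Ptger3, Irx1 and Irx2 lie higher in Cldn10-dominant cells of all 4 libraries, and Irx3, Irx5, Foxq1, Pth1r, Wnk1 and Kcnj10 lie lower.

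Ptger3 stood at 449, 396, 344 and 388 CPM in Cldn10-dominant cells and at 24.7, 35.9, 35.1 and 39.7 CPM in Cldn16-dominant cells (log2 fold change 3.50 ± 0.11, adjusted p = 4.31e-10). Pla2g7, which encodes the acetylhydrolase that inactivates platelet-activating factor, was at 88.6, 92.7, 96.3 and 103.9 CPM against 3.99, 3.91, 5.01 and 4.41 CPM (log2 fold change 4.44 ± 0.12). Neither gene overlapped between the groups, and both were within a narrow range across the 4 conditions. The long noncoding RNA Eprn was at a mean of 209 against 11.3 CPM. Esam, a cell adhesion gene, was at 76.7 against 8.03 CPM, the cytokine gene Tnfsf15 at 30.0 against 3.74 CPM, and the chemokine gene Cxcl12 at 38.2 against 7.50 CPM. Gm49179, at 21.4 against 1.37 CPM, is annotated on chromosome 14 at 118875882-118880860 on the same strand as Cldn10 and just beyond its end, so it may share reads with Cldn10 and is reported as uncertain.

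Of 20 genes of sodium chloride transport tested, 7 were higher in Cldn10-dominant cells and 6 lower, beside 7.24% and 4.97% of all genes tested, with a median log2 fold change of -0.01. Higher members, with log2 fold changes where no CPM is given, included the sodium-activated potassium channel gene Kcnt1 (a mean of 22.2 against 7.10 CPM), Fxyd2, which encodes the gamma subunit of the sodium pump (0.94), Car2, a carbonic anhydrase gene (0.66), Slc12a4 (0.64), Slc16a7 (0.62) and Kcnj1, which encodes the apical potassium channel ROMK (0.18). Fxyd2 was at 6171, 6330, 3145 and 2224 CPM against 2296, 2102, 1904.5 and 2077 CPM, so the groups lay closer in the aged libraries. Lower members included the carbonic anhydrase gene Car15, which fell by 1.96, the basolateral potassium channel genes Kcnj10 and Kcnj16, which fell by 1.64 and 0.51, Slc9a3 by 0.36 and Bsnd by 0.23 on the log2 scale.

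Among 15 tight junction genes tested, Cldn3 was higher (log2 fold change 0.74) and Cldn14 and Cldn8 were lower. A count of 1 higher gene in 15 is near the background of 7.24%, and 4.97% of all genes tested were lower. Cldn14, whose product limits calcium uptake in this segment, was at 5.54, 3.95, 0.700 and 1.44 CPM against 40.3, 35.9, 4.18 and 4.73 CPM (log2 fold change -2.88 ± 0.21). It was lower in both cell groups of the aged libraries. Cldn19 was at 353, 316, 207 and 215 CPM against 357, 328, 282 and 261 CPM, with an adjusted p of 0.0625. Of 15 genes of divalent cation handling, 2 were higher (Calb1 and Trpm7) and 5 lower (Pth1r, Kcnj10, Casr, Vdr and Atp2b1). Among all genes tested, 7.24% were higher and 4.97% lower. Pth1r, the parathyroid hormone receptor, was at 122, 135, 218 and 169 CPM against 544, 547, 532 and 536 CPM, with no overlap. Casr, the calcium-sensing receptor, was at 45.0, 45.4, 70.6 and 67.4 CPM against 78.5, 86.7, 109 and 93.2 CPM, and it did not overlap either.

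Of 25 hormone and paracrine receptor genes, 8 were higher and 5 lower, beside 7.24% and 4.97% of all genes tested. Besides Ptger3, the higher genes were Adrb1, the beta-1 adrenergic receptor (log2 fold change 2.09 ± 0.22), Fgfr2 (0.98), P2ry2 (0.90), Igf1r (0.56), the vasopressin V2 receptor Avpr2 (0.53), Erbb3 (0.47) and the glucocorticoid receptor Nr3c1 (0.30). Lower genes were Pth1r, Oxgr1, Casr, Vdr and Gcgr, the glucagon receptor. In the kinase pathway that activates the sodium chloride cotransporters, 2 of 21 genes were higher and 4 lower, where the share of higher genes was near the 7.24% of all genes tested. Wnk4 (0.63) and Stk39, which encodes the kinase SPAK (0.53), were higher. Wnk1 was lower, at 310, 228, 450 and 598 CPM against 1272, 935, 1182 and 1627 CPM (log2 fold change -1.76 ± 0.10). Wnk1 was also the most abundant of 7 distal convoluted tubule markers, whose sum was 537, 408, 691 and 883 CPM in Cldn10-dominant cells against 2076, 1717, 2009 and 2444 CPM in Cldn16-dominant cells. Of the 6 markers of this list outside the rule, Wnk1, Tmem52b and Pvalb were lower and Calb1 was higher, and the part of distal convoluted tubule RNA in these differences was not tested.

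Of 11 macula densa genes tested, 6 were higher and Egf was lower, beside 7.24% higher and 4.97% lower among all genes tested. The median log2 fold change of this list was 0.67. Macula densa cells sense tubular chloride at the end of the thick ascending limb and express Nos1 and Ptgs2. Pappa2, which encodes a protease of insulin-like growth factor binding proteins, was at 7.86, 8.75, 35.2 and 91.4 CPM against 2.79, 0, 0.418 and 1.89 CPM (log2 fold change 4.80 ± 0.40). Nos1 was at 8.49, 6.29, 15.2 and 26.5 CPM against 1.59, 0.355, 0 and 2.52 CPM. These genes were carried by few cells: 2 or more Nos1 UMIs were found in 16, 10, 11 and 12 Cldn10-dominant cells, and 2 or more Pappa2 UMIs in 12, 10, 13 and 13. Those cells made up 0.854%, 0.871%, 3.15% and 2.78% of the cells for Nos1. Robo2, Bmp3, Ptgs2 and Fabp3 were also higher. Egf, which encodes epidermal growth factor, was at 5084, 4534, 6867 and 8268 CPM against 7430, 7269, 9286 and 9590 CPM.

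The counts of the following lists stand beside 7.24% higher and 4.97% lower among all genes tested. Of 27 immediate early and heat shock genes 13 were higher, among them Fos (0.35), Egr1 (0.41) and Atf3 (0.50), and Ier3 fell by 1.09 on the log2 scale. Of 63 cytosolic ribosome genes 15 were higher and 0 lower by edgeR. Of 23 genes of secreted and surface proteins 7 were higher and 9 lower, and Wfdc2, Tmem207 and Sostdc1 were among the lower ones. Of 77 nuclear genes of oxidative phosphorylation 2 were higher and 8 lower, and of 58 lysosome and autophagy genes 11 were higher and 2 lower. The higher oxidative phosphorylation genes and the lower lysosome and autophagy genes were thus no more frequent than among all genes. Of 26 antigen presentation genes 7 were higher, led by Cd74, at 5.45, 28.9, 26.1 and 2.59 CPM, which is a marker of antigen-presenting cells. Tfeb did not pass the test, at 18.1, 20.3, 18.2 and 21.6 CPM against 21.1, 18.5, 28.0 and 19.8 CPM.

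Of the 16 proximal tubule markers tested, 15 were higher in Cldn10-dominant cells, beside 7.24% of all genes tested. They were led by Kap (log2 fold change 3.68) and Slc7a13 (3.61). Kap, Slc7a13 and Miox were among the 15 genes with the largest positive fold changes, as were Akr1c21 and Ass1, which the proximal tubule also expresses. When cells with 1% or more of their counts from these markers were left out, a choice made after seeing the data, 654 genes were higher and 499 lower, of which 568 and 458 were shared with the full comparison. Akr1c21 then had a log2 fold change of -0.12, while Ptger3 (3.56), Irx1 (3.39), Pla2g7 (4.58) and Irx5 (-4.35) were as large as before. This choice removes cells by the markers themselves, so the loss of the markers' own calls carries no information.

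**Figure D3:**
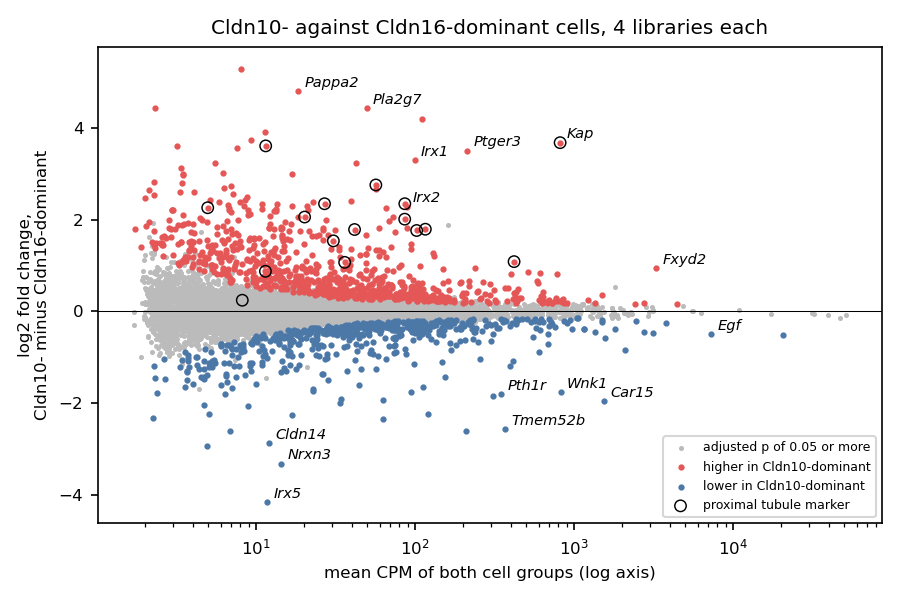
Log2 fold change of each tested gene in Cldn10-dominant against Cldn16-dominant cells (vertical axis) by mean CPM of both groups (horizontal log axis), 4 libraries each, with called genes coloured and proximal tubule markers circled. The circled markers lie above 0 together with Ptger3, Irx1 and Pla2g7, and Irx5, Nrxn3 and Cldn14 are the lowest of the labelled genes.

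Cldn10-dominant cells also varied among themselves. At 2000 UMIs a cell, the variance of Pearson residuals, which is near 1 where cells differ by counting alone, had a median of 1.02 over 8485 genes. It was highest for the nuclear RNA Malat1 (28.1), Kap (20.1) and Gm42418 (14.9), a transcript that overlaps ribosomal RNA sequence. Fxyd2 (9.38), Umod (6.93), Fos (6.62), Egf (5.98), Jun (5.55) and Spp1 (4.95) followed among genes that the thick ascending limb expresses. The remaining genes of the highest 15 were Gpx3, Tmsb4x, Klk1, S100g, Slc34a1 and Spink1, of which Gpx3, Slc34a1 and Spink1 are in the proximal tubule marker list.

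Aged and young cells were compared in both genotypes, and the pairs share no library. No test was run between conditions, which had 1 library each. A gene is called past the fold where its log2 CPM ratio reached 1 in the same direction in both pairs. Of 7892 genes with a mean of at least 10 CPM, 23 were higher in both aged libraries (0.291%) and 29 were lower (0.367%), and 68.1% had the same sign in both pairs. With CPM scaled by TMM the split was 19 higher and 37 lower. The median log2 ratio over all genes was 0.03 in both pairs.

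Among genes of higher level in aged cells, Atp4a, which encodes the catalytic subunit of the hydrogen-potassium pump, was at 23.4, 21.3, 76.9 and 99.8 CPM. Its log2 ratios were 1.72 (95% interval 1.53 to 1.90) in Tfebfl/fl and 2.23 (2.03 to 2.42) in Tfebfl/fl KAP cells. Dnase1 was at 46.0, 31.4, 106.1 and 71.2 CPM, and Aebp1 at 26.7, 38.7, 86.7 and 79.6 CPM. Both aged libraries were above both young libraries for all 3 genes, as they were for 30.0% of the 7892 genes, so this order alone does not set a gene apart. The metallothionein gene Mt2 had log2 ratios of 0.87 and 0.90, Foxq1 of 0.75 and 1.25, Tmem52b of 0.74 and 1.41, Fgf9 of 1.14 and 0.77, and Bmp4 of 0.75 and 0.72. Foxq1 and Tmem52b were also among the genes lower in Cldn10-dominant than in Cldn16-dominant cells. The mitochondrial gene mt-Nd4l was at 949, 1323, 2204 and 2810 CPM. Cldn16-dominant cells of the aged libraries also had higher levels of Atp4a (log2 ratios 1.05 and 1.41), mt-Nd4l (1.05 and 1.10), Mt2 (0.77 and 1.10), Dnase1 (2.02 and 0.59) and Aebp1 (0.49 and 0.80). Dnase1 was far more abundant in proximal tubule reference cells, at 864, 810, 1586 and 1642 CPM, with log2 ratios of 0.88 and 1.02. Without cells of 1% or more proximal tubule marker counts, Dnase1 had log2 ratios of 1.62 and 1.08 in Cldn10-dominant cells.

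Among genes of lower level in aged cells, Cryab, which encodes a small heat shock protein, was at 202, 182, 60.9 and 46.6 CPM. Nccrp1 was at 195, 168, 58.7 and 51.0 CPM, and the homeobox gene Prox1 at 78.3, 68.1, 32.7 and 26.2 CPM. For these genes both aged libraries lay below both young libraries, an order that 22.2% of the 7892 genes had. Ranbp3l (log2 ratios -1.84 and -1.11) and Enpp2, which encodes autotaxin (-1.10 and -1.13), were past the fold as well. In Cldn16-dominant cells, Cryab was lower in both aged libraries as well, with log2 ratios of -2.46 and -1.48. There Prox1 had log2 ratios of 0.67 and -0.54, Nccrp1 of 0.00 and -0.47, Ranbp3l of -0.06 and -0.04 and Enpp2 of -0.12 and 0.03, and the difference between the cell groups was not tested. Fxyd2 was at 6171, 6330, 3145 and 2224 CPM, with log2 ratios of -0.97 and -1.51, against -0.27 and -0.02 in Cldn16-dominant cells. The transferrin receptor gene Tfrc was at 90.5, 92.1, 51.7 and 32.5 CPM. The glucose transporter gene Slc2a1 was at 111.8, 110.2, 65.0 and 62.5 CPM, and the lipoprotein lipase gene Lpl at 1051, 972, 660 and 486 CPM. These 3 genes had the same order of libraries. Hbb-bs was at 49.7, 226, 0 and 0 CPM, and it is the most abundant of the erythrocyte markers given above.

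**Figure D4:**
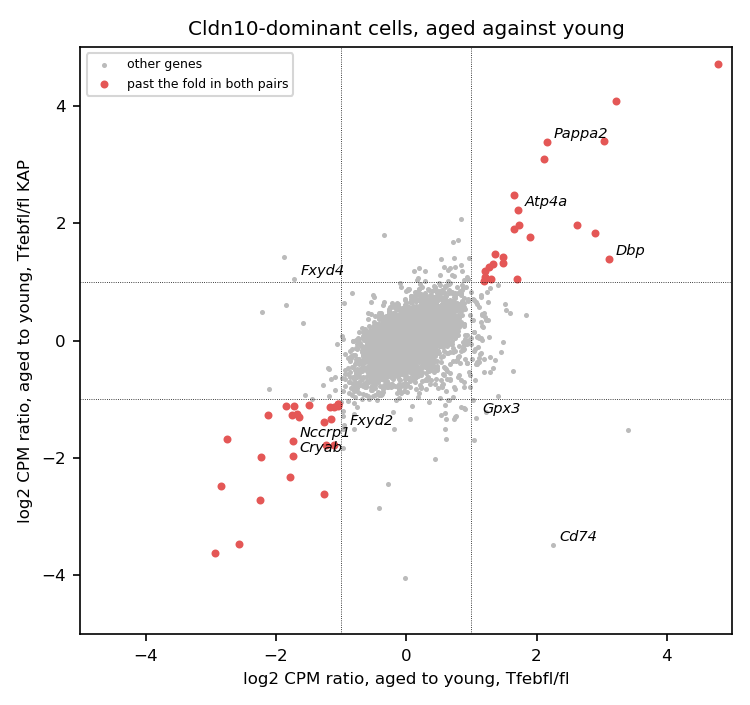
Log2 CPM ratio of aged to young Cldn10-dominant cells in Tfebfl/fl (horizontal axis) and Tfebfl/fl KAP libraries (vertical axis), 1 point per gene, with dotted lines at 1 and -1; 4 genes at 0 in a library are not drawn. Red genes are past the fold in both pairs, with Atp4a at 1.72 and 2.23 and Cryab at -1.73 and -1.96, and Fxyd4, Gpx3 and Cd74 lie in the quadrants of opposite sign.

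Lists were described by counts and medians beside the median of 0.03 for all genes. Of 12 measured circadian clock genes, 9 were higher in aged Tfebfl/fl and 8 in aged Tfebfl/fl KAP cells, with medians of 0.39 and 0.45. Dbp, a target of the clock, was at 4.51, 6.22, 39.0 and 16.2 CPM, Tef at 17.8, 15.8, 44.7 and 39.0 CPM and Nr1d2 at 22.8, 20.8, 56.4 and 42.7 CPM. Arntl, which encodes the activator BMAL1, was lower in aged cells, at 17.3, 19.5, 5.25 and 9.06 CPM. The clock list had medians of 0.68 and 0.55 in proximal tubule reference cells and of 0.70 and 0.72 in Cldn16-dominant cells, so the shift was not seen in Cldn10-dominant cells alone.

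Of 13 measured genes of divalent cation handling, 8 and 10 were higher in aged cells, with medians of 0.47 and 0.54. Casr (0.65 and 0.57), Vdr (0.53 and 0.54), Slc41a1 (0.59 and 0.61) and Rragd (0.47 and 0.55) were higher in both pairs, while S100g (-0.96 and -1.44), Calb1 (-2.11 and -0.82) and Slc8a1 (-1.05 and -1.09) were lower. S100g in Tfebfl/fl KAP cells turned to 0.12 with at most 20% mitochondrial counts. S100g was the most abundant of 9 connecting tubule and principal cell markers, whose sum was 626, 475, 299 and 475 CPM, and the part of those cells in the S100g values was not tested. In Cldn16-dominant cells the medians of this list were 0.14 and 0.05. Of 8 measured macula densa genes 7 were higher in each pair, with medians of 0.40 and 0.94. The share of cells with 2 or more Nos1 UMIs, a gene of this list, was 0.854%, 0.871%, 3.15% and 2.78%, while the number of such cells was 16, 10, 11 and 12, so a larger share of these few cells and a higher level per cell cannot be told apart here. Glycolysis genes went the other way: 12 of 16 were lower in aged Tfebfl/fl and 16 of 16 in aged Tfebfl/fl KAP cells, with medians of -0.14 and -0.31, and Ldha was at 193, 180, 157 and 104 CPM. Of 77 nuclear oxidative phosphorylation genes 55 and 52 were lower, with medians of -0.11 and -0.08, and 19 and 21 of 27 citrate cycle genes were lower, with medians of -0.11 and -0.15. Kcnj1 had log2 ratios of 0.03 and 0.00 between aged and young cells.

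**Figure D5:**
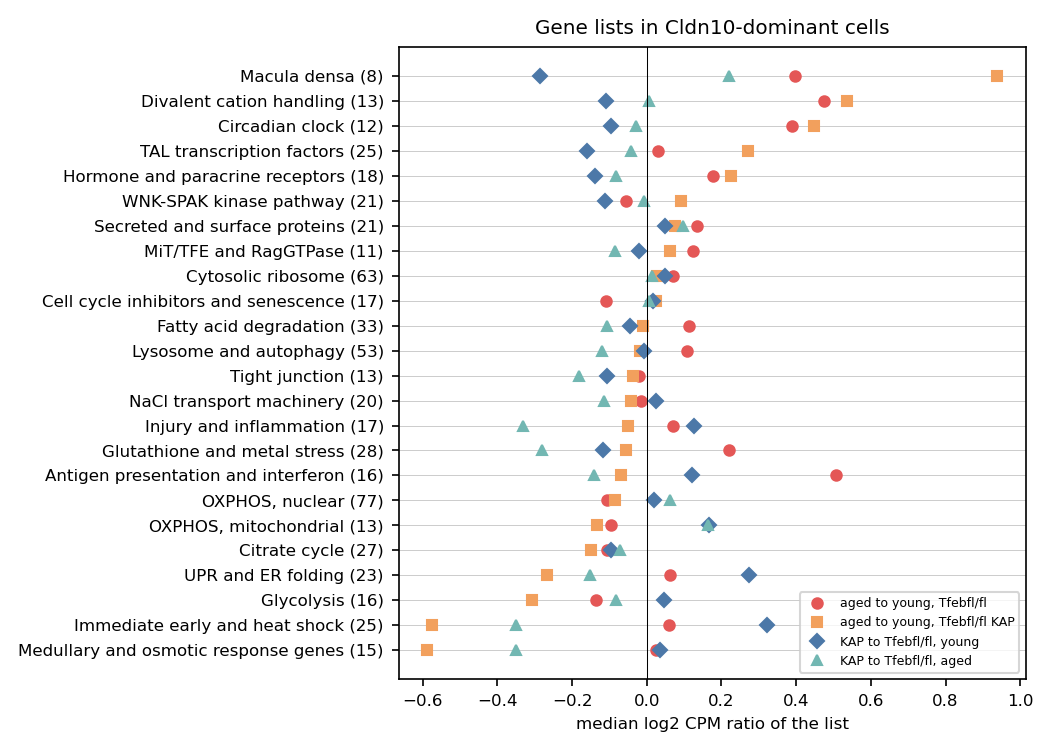
Median log2 CPM ratio of each gene list in Cldn10-dominant cells (horizontal axis) for the 4 pairs of libraries, with the number of measured genes in parentheses. Macula densa, divalent cation and clock genes lie above 0 in both aged pairs, at 0.40 to 0.94, 0.47 to 0.54 and 0.39 to 0.45, and glycolysis genes lie below 0.

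Some lists differed in sign between the genotypes. Immediate early and heat shock genes had medians of 0.06 in aged against young Tfebfl/fl and -0.57 in aged against young Tfebfl/fl KAP cells, where 24 of 25 were lower. Fos was at 1734, 1900, 1807 and 1370 CPM and Atf3 at 287, 579, 530 and 335 CPM. In Cldn16-dominant cells the medians of this list were 0.20 and -0.63. Antigen presentation genes had medians of 0.51 and -0.07. Its members Cd74 and H2-Aa, which mark antigen-presenting cells, were at 5.45, 28.9, 26.1 and 2.59 CPM for Cd74 and 2.28, 15.3, 24.2 and 5.32 CPM for H2-Aa. The 9 myeloid markers, led by Fcer1g, summed to 18.4, 30.4, 21.2 and 43.0 CPM, and the part of those cells was not tested. The difference between genotypes could not be tested with 1 library in each condition.

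Tfebfl/fl KAP cells were compared with Tfebfl/fl cells at each age, in the same 4 libraries that gave the comparison of ages. Of 7892 genes, 7 were past the fold in the same direction at both ages (0.0887%), and all 7 were lower in Tfebfl/fl KAP cells. With at most 20% mitochondrial counts 6 genes were higher and 7 lower, and with no minimum level 90 were higher and 154 lower. Another 4 genes were past the fold in opposite directions, and 57.1% of all genes had the same sign at both ages. The 7 genes lower at both ages included Kap, at 1833, 699, 2507 and 981 CPM, and Slc27a2, a fatty acid transport gene of the proximal tubule, at 118, 52.7, 215 and 84.4 CPM. Few cells carried Kap: 2 or more Kap UMIs were found in 155, 19, 21 and 8 Cldn10-dominant cells, or 8.28%, 1.66%, 6.02% and 1.86%. AY036118, at 68.2, 4.41, 53.6 and 15.2 CPM, was named after its values were seen. Both Tfebfl/fl KAP libraries were below both Tfebfl/fl libraries for these 3 genes, as for 21.7% of the 7892 genes, while the opposite order was found for 7.07%. The proximal tubule marker sum moved with them, at 3281, 2075, 5331 and 1733 CPM, and its part in the result was not tested for Kap, which is itself a marker. Without cells of 1% or more marker counts, Slc27a2 had log2 ratios of -1.22 and -1.02, and AY036118 of -4.05 and -2.10.

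Abca13 was at 462, 209, 523 and 267 CPM, and Gm42418 at 2035, 551, 3329 and 1765 CPM. Both genes were also lower in Tfebfl/fl KAP libraries in Cldn16-dominant cells. There the log2 ratios in young and aged mice were -0.82 and -0.81 for Abca13 and -3.77 and -1.84 for Gm42418. Proximal tubule reference cells had ratios of -0.95 and -0.30 for Abca13 and -1.24 and -0.57 for Gm42418, so neither difference was seen in Cldn10-dominant cells alone. Genes higher in Tfebfl/fl KAP cells differed by less: Mt2 had log2 ratios of 0.36 and 0.39, Herpud1, a gene of the response to unfolded proteins, of 0.38 and 0.33, and Sh3bgrl3 of 0.42 and 0.54. In Cldn16-dominant cells the ratios were 0.10 and 0.43 for Mt2, 1.05 and 0.33 for Herpud1, and -0.46 and -0.11 for Sh3bgrl3. Tfeb was at 18.1, 20.3, 18.2 and 21.6 CPM in Cldn10-dominant cells and at 7.71, 6.83, 6.69 and 4.22 CPM in proximal tubule reference cells. Counts of 3′ ends do not show whether the floxed part of Tfeb was removed. Of 11 measured genes of the Tfeb family and its regulators, 5 were higher in young and 4 in aged Tfebfl/fl KAP cells, with medians of -0.02 and -0.09. Of 53 lysosome and autophagy genes 24 and 14 were higher, with medians of -0.01 and -0.12, beside -0.06 and -0.05 for all genes.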

How the data were processed

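The authors aligned reads of 10x Genomics libraries of 3′ transcript ends with Cell Ranger 6.0.0 to mm10, removed ambient RNA with SoupX and worked in Seurat 4.4.0, per the submitters' notes and the study's methods. The deposited matrices hold whole-number counts of UMIs per gene and barcode after that correction. From them, the cells were gated as described and their counts summed per library. CPM is summed counts scaled to 1000000. Cell groups were compared with edgeR 4.0.16 (quasi-likelihood, TMM, Benjamini-Hochberg), tested on simulated data, with the 5 genes of the rule left out of the calls. Conditions were compared as CPM ratios with exact binomial 95% intervals, which cover counting error only. Scrublet marked 191, 83, 28 and 17 of the cells as doublets, and they were kept. The members and gene lists were chosen with earlier results of these data known. Named genes were the 15 largest and 15 smallest fold changes with an adjusted p under 0.05, at least 20 CPM in either group and 1 sign in every library, the 15 each way with age and 8 each way with KAP at 50 CPM or more by the smaller of both ratios, the 15 most variable genes, and list members at 10 CPM or more. Alternatives were DESeq2 1.42.0, other normalizations, filters and gates, and leaving out each library. Some genes measured in these files are not reported here.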

Additional observations from a re-analysis of the deposited data

Results flagged for a closer look

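A few genes of Cldn10-dominant cells moved past the fold in opposite directions in the 2 genotypes or at the 2 ages, which was not tested because each condition had 1 library. For aged against young cells, the log2 CPM ratios in Tfebfl/fl and in Tfebfl/fl KAP were Fmo1 (1.04 and -1.70), Fmo2 (1.23 and -1.22), Aqp3 (-1.87 and 1.43), Fxyd4 (-1.72 and 1.05), Gpx3 (1.07 and -1.31), Fbp1 (1.03 and -1.02), H2-Aa (3.41 and -1.52), Cd74 (2.26 and -3.48). For Tfebfl/fl KAP against Tfebfl/fl cells, the ratios in young and in aged mice were Aqp3 (-1.31 and 1.99), H2-Aa (2.75 and -2.18), Cd74 (2.40 and -3.33). Acta2 met the same condition in both comparisons, at 3.44, 39.4, 9.28 and 0 CPM in the 4 libraries, and no ratio is given for it because 1 library was at 0. Gpx3 and Fbp1 are in the proximal tubule marker list, whose sum was 3281, 2075, 5331 and 1733 CPM in the 4 libraries, Aqp3 and Fxyd4 are in the connecting tubule and principal cell marker list, whose sum was 626, 475, 299 and 475 CPM, and Cd74 and H2-Aa are genes of antigen-presenting cells.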

How the results depend on the processing

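No paired test was run between conditions, which had 1 library each and labels that give no replicate numbers. The cell groups were compared with library as a block. With at most 20% mitochondrial counts, 1447 Cldn10-dominant cells were left and the Cldn10-dominant share in young Tfebfl/fl was 92.8%. Gating after thinning gave shares of 94.2%, 91.1%, 81.3% and 77.9%. Against Cldn16-dominant cells, DESeq2 called 468 higher and 276 lower genes, the fit with no library block 251 and 169, at most 20% mitochondrial counts 356 and 231, and thinning to 2000 UMIs, chosen after seeing the data, 226 and 176. With no filter on low counts, 1237 were higher. Leaving out 1 library gave 581 to 679 higher and 330 to 426 lower genes. Akr1c21 reversed, to -0.12, without cells of 1% or more proximal tubule marker counts. With age, a minimum of 50 CPM left 4 higher and 7 lower genes, no minimum gave 399 and 230, at most 20% mitochondrial counts gave 45 higher and thinning 36 higher. For Tfebfl/fl KAP the counts were 2, 244, 13 and 14 under those settings in that order, of which 0, 90, 6 and 3 were higher, and 4, all lower, with Scrublet doublets removed. S100g in aged against young Tfebfl/fl KAP reversed to 0.12 with at most 20% mitochondrial counts, as did Akr1c21 (0.19) and Gatm (0.11) in young Tfebfl/fl KAP. With doublets removed, Akr1c21 (0.11), Gatm (1.01) and Lrp2 (0.17) reversed there. The macula densa median in aged Tfebfl/fl KAP against aged Tfebfl/fl reversed, to -0.025 for the mean of per-cell CPM and -0.080 for thinned cells. The causes were not tested. Pooled mice and 1 library per condition limit every statement on age and genotype to these libraries.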
